A study of Mus musculus with 24 samples.

Results

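The normal mammary gland of FVB mice was compared between later and earlier weeks of age. The 12 FVB samples of the 24 samples in the series were chosen by genotype and week: 6 glands of weeks 10 and 12 are called later, and 6 glands of weeks 6 and 8 are called earlier, with 3 mice at each week. The FVB mice were females homozygous for the FVB background and carried no transgene. They were the controls of a tumor study, in which the other 12 samples are glands or tumors of PyMT females of the same ages, heterozygous for a transgene in which the MMTV promoter drives the middle T antigen of polyoma virus. Each sample is a piece of whole frozen gland with epithelium, fat, stroma, vessels and any muscle or lymph node cut out with it. The labels give neither the gland taken nor the stage of the estrous cycle nor the litter of each mouse, so litter is in none of the fits, and each week is a different set of mice, so age was compared between animals and not followed in them. Pooling weeks 6 with 8 and 10 with 12 sets the middle of the periods 4 weeks apart.

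In the virgin mouse, puberty drives the mammary ducts through the fat pad. Terminal end buds at the duct tips divide, invade and are wrapped in new collagen and elastic matrix, under estrogen, growth hormone and IGF1. When the ducts reach the edge of the fat pad the end buds disappear, and in the adult virgin the epithelium adds side branches and small alveolar buds with the estrous cycles.

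Markers of the labelled tissue were present in all 12 libraries. No marker of luminal epithelium, of basal and myoepithelial cells or of adipocytes was at a count of 0 in all of them. The summed level of the 12 luminal markers ran from 802 to 2235 CPM, counts scaled to the library total, in the earlier glands and from 689 to 2856 CPM in the later ones, and that of the 10 adipocyte markers from 10941 to 24675 and from 18239 to 25155 CPM. Skeletal muscle was the most uneven tissue. Its 12 markers summed to 11.0 CPM in the lowest library and to over 10000 CPM in 4 of them, namely week 6 replicates 1 and 2, week 10 replicate 3 and week 12 replicate 1, 2 in each period. Total counts ran from 7413790 to 11376792 in the earlier and from 6969375 to 11928398 in the later libraries (two-sided exact permutation test, p = 0.827). In 7 of the 12 libraries, the histogram of gene counts had a peak at 8 to 19 reads, called the packet size here. These were 3 earlier and 4 later libraries, with all 3 of week 10 among them. Low counts in them may be less precise than their depth would give, which was not tested.

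No gene passed the test of later against earlier glands. Of the 14918 genes tested with edgeR's quasi-likelihood test, 0 were higher (0.0%) and 0 were lower (0.0%) at a Benjamini-Hochberg adjusted p under 0.05, and 0 also exceeded a fold of 2. The smallest adjusted p was 0.802, and it was 0.908 for each of the other 9 genes of smallest p by direction, named below. At an unadjusted p under 0.05 there were 761 genes, or 5.1% of those tested, 360 with a higher mean in the later glands (2.41%) and 401 with a lower one (2.69%). The biological coefficient of variation among the 12 glands was 0.524, and the log2 fold changes of all tested genes had a median of 0.00. Fewer cells of a type and less RNA per cell cannot be told apart in such whole-tissue samples.

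The other tests run on the same counts called some genes. DESeq2's Wald test called 9 genes higher (0.0603%) and 8 lower (0.0536%), 16 of these 17 beyond a fold of 2. Of the 9 higher ones, 7 are models on 1 satellite repeat of chromosome 9 that can share reads, described below. Limma voom with sample quality weights, which lets noisier libraries count less, called 58 higher (0.389%) and 28 lower (0.188%), 39 of them beyond a fold of 2, with 2 models of that repeat among the higher ones. The 2 tests shared 8 genes, which is 47.1% of the DESeq2 calls and 9.3% of the voom calls: C1qtnf6, Ccl11, Eln, Gm10718, Gm16869, Meg3, Wnk4 and the annotated microRNA mmu-mir-2134-1. All 17 DESeq2 calls and 75 of the 86 voom calls had an unadjusted p under 0.05 in the quasi-likelihood test. Before adjustment, voom put 2687 genes (18.0%) and DESeq2 893 (5.99%) at a p under 0.05, beside 761 (5.1%) in the quasi-likelihood test. The 6 later values lay wholly above the 6 earlier ones for 32 genes (0.215% of those tested) and wholly below them for 22 (0.147%). Below, levels are normalized counts, that is counts over DESeq2's size factors, differences are log2 fold changes of later minus earlier glands from the quasi-likelihood fit, and no gene passed that fit. List members given with a log2 fold change alone were named after their values were seen.

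**Figure D1:**
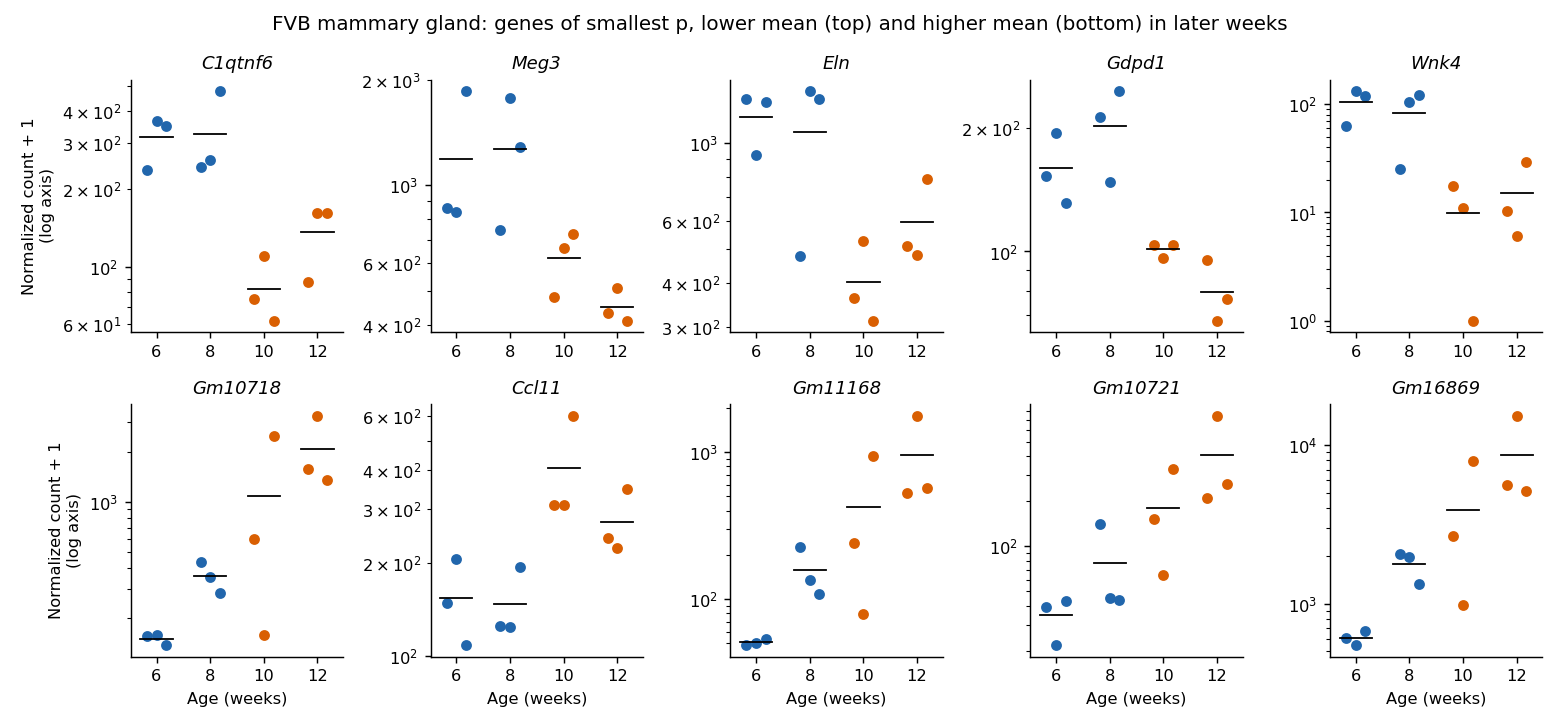
Normalized counts plus 1 on log axes of the 5 genes of smallest p with a lower mean (top) and the 5 with a higher mean (bottom) in later FVB glands, against age in weeks. Each point is 1 mouse, blue for earlier and orange for later, and the line is the mean of the week; C1qtnf6 ran from 236 to 475 in the earlier and from 61.0 to 161 in the later glands.

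The gene of smallest p was C1qtnf6, on the minus strand of chromosome 15 (mm9, chr15:78353776-78360055), which encodes a secreted protein of the C1q and TNF related family. Its normalized count had a lowest, median and highest value of 236, 303 and 475 in the earlier glands and of 61.0, 97.7 and 161 in the later ones. The 2 sets did not overlap. Later minus earlier, this gave a log2 fold change of -1.58 ± 0.28 (SE; 95% interval -2.17 to -0.98; unadjusted p = 5.38e-05). The means of weeks 6, 8, 10 and 12 were 316 ± 69.0, 325 ± 130, 81.4 ± 24.9 and 136 ± 43.0 (SD, n = 3 each), so every gland of weeks 10 and 12 was below every gland of weeks 6 and 8. DESeq2 gave an adjusted p of 0.00198 and voom one of 0.0221.

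Eln encodes tropoelastin, the core of elastic fibers (mm9, chr5:135179651-135223111, minus strand). It had values of 476, 1316 and 1400 (lowest, median, highest) in the earlier glands and of 311, 494 and 790 in the later ones. Of the earlier glands only week 8 replicate 1, at 476, lay within the later range. Its log2 fold change was -1.20 ± 0.26 (95% interval -1.77 to -0.64; unadjusted p = 0.000427; DESeq2 adjusted p = 0.0219). Of the 17 tested genes of elastic fibers and microfibrils, 12 had a lower and 5 a higher mean in the later glands, with a median of -0.32 beside 0.00 for all tested genes. An unadjusted p under 0.05 was found for 3 lower ones, Eln, Fbn1 and Mfap2 (-0.73), and 2 higher ones, Efemp1 (0.76) and Fbln1 (0.86), both fibulins. The share of all tested genes at that threshold was 5.1%. Fbn1, the main microfibril protein, went from a median of 9830 in the earlier glands to 5802 in the later ones, and the later range of 4953 to 8850 lay within the earlier range of 4761 to 11458 (log2 fold change -0.55 ± 0.22). Ltbp3, which tethers latent TGF-beta to microfibrils, was at medians of 2346 and 2165, and Fbln2, a fibulin, at 1919 and 1866.

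The chains of the fibrillar collagens I and III, the main fibers of the stroma, had lower means in the later glands. Col3a1 ran from 22250 over a median of 72795 to 89837 in the earlier glands and from 27314 over 37738 to 61061 in the later ones, a log2 fold change of -0.73 ± 0.30 (unadjusted p = 0.0296). Type I collagen had values of -1.05 ± 0.37 for Col1a1 (unadjusted p = 0.0128) and -0.87 ± 0.33 for Col1a2 (unadjusted p = 0.0202). Col1a1 was at 7266 in week 8 replicate 1, below every later gland, and between 19431 and 47682 in the other earlier glands, where the later glands ran from 9121 to 22485. Of the 36 tested collagen chains, 28 had a lower and 8 a higher mean, with a median of -0.33. An unadjusted p under 0.05, as in 5.1% of all tested genes, belonged to 5 lower chains and 1 higher one. Beside the 3 above these were Col5a2 (-0.78), Col12a1 (-1.11) and the higher Col28a1 (2.02).

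The enzymes and chaperones that modify collagen lay nearer to 0. Of 27 tested, 19 had a lower and 8 a higher mean (median -0.14). Loxl1 and Loxl2 (-0.72), both lower, were the 2 with an unadjusted p under 0.05, beside 5.1% of all tested genes. Loxl1, a lysyl oxidase that crosslinks elastin and collagen, had medians of 1640 and 1224 with a log2 fold change of -0.35 ± 0.13. The collagen chaperone Serpinh1 was at medians of 5094 and 4495 and P4hb, a subunit of prolyl 4-hydroxylase, at 3090 and 3125. Their log2 fold changes were -0.08 ± 0.17 and -0.03 ± 0.14, and both changed sign under some of the alternatives run.

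Matricellular proteins and proteoglycans were split. Of 25 tested, 13 had a higher and 12 a lower mean (median 0.02, and -0.08 with scaling by library size only). The 5 lower ones with an unadjusted p under 0.05 were Fn1, Postn, Thbs1 (-1.29), Vcan (-1.04) and Cyr61 (-0.35), and the 3 higher ones were Dcn, Spp1 (2.48) and Sparcl1 (0.54). Over all tested genes the share was 5.1%. Fn1 encodes fibronectin, a matrix protein that cells assemble and migrate on. It ran from 10791 over a median of 21229 to 33902 in earlier glands and from 8669 over 11827 to 16477 in the later ones. The log2 fold change of Fn1 was -0.84 ± 0.26 (unadjusted p = 0.00585; voom adjusted p = 0.019; DESeq2 adjusted p = 0.193). Postn, encoding periostin, had medians of 18719 and 10176 (-0.86 ± 0.36), and Sparc, a collagen-binding matricellular protein, had medians of 17229 and 11862 (-0.39 ± 0.25). Dcn, encoding decorin, a small proteoglycan that coats collagen fibrils, went the other way. It ran from 3751 over 5662 to 7569 in the earlier glands and from 6609 over 9544 to 13754 in the later ones. On the log2 scale Dcn was at 0.74 ± 0.22 (unadjusted p = 0.00504; voom adjusted p = 0.0385; DESeq2 adjusted p = 0.162). The ranges of Dcn overlapped between 6609 and 7569.

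**Figure D2:**
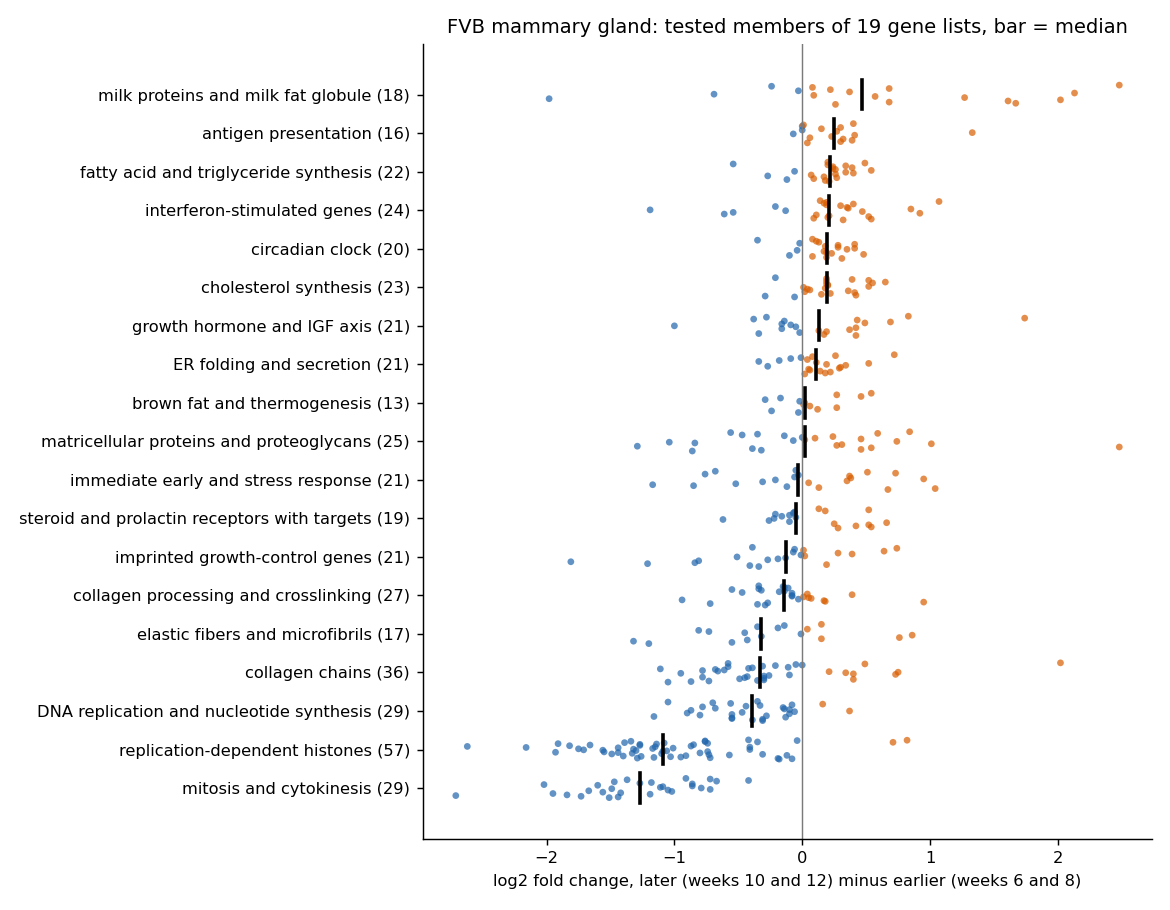
Log2 fold change of later minus earlier FVB glands (horizontal axis) for each tested member of 19 gene lists (rows, number tested in brackets), with the median as a black bar. The medians ran from -1.27 for mitosis and cytokinesis to 0.47 for milk proteins, beside 0.00 for all tested genes, and no point passed the test.

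Meg3 is a long noncoding RNA expressed from the maternal chromosome of the imprinted Dlk1 to Dio3 region (mm9, chr12:110779211-110809936). It had values of 743, 1074 and 1855 (lowest, median, highest) in the earlier glands and of 410, 494 and 725 in the later ones, with no overlap. This was a log2 fold change of -1.21 ± 0.25 (95% interval -1.74 to -0.68; unadjusted p = 0.000216; DESeq2 adjusted p = 0.0111; voom adjusted p = 0.019). Rian, a noncoding RNA of the same region named after its values were seen, had medians of 857 and 423. Its lowest earlier value, 193 in week 8 replicate 1, was below every later one, and its log2 fold change was -0.84 ± 0.35 (unadjusted p = 0.0281).

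Of the 21 tested imprinted growth-control genes, 14 had a lower and 7 a higher mean (median -0.13). In each direction 2 had an unadjusted p under 0.05, Meg3 and Rian lower and Dcn and Sgce (0.64) higher. Over all tested genes the share was 5.1%. Gnas, the stimulatory G protein subunit, was at medians of 4985 and 4605, and Peg3, a paternally expressed zinc finger gene, at 2769 and 2602. The genes of the growth hormone and IGF axis lay on both sides of 0, with 11 of 21 higher and a median of 0.13. Igfbp5, an IGF binding protein of the gland, ran from 10719 over 12763 to 18341 in the earlier and from 13845 over 18434 to 26430 in the later glands (0.49 ± 0.21, unadjusted p = 0.034). The growth hormone receptor gene Ghr had medians of 5311 and 7655 (0.42 ± 0.21) and Irs1, the adaptor of insulin and IGF1 receptors, of 2412 and 3748 (0.37 ± 0.23).

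Gdpd1 encodes a phosphodiesterase that acts on lysophospholipids. It ran from 130 over a median of 173 to 245 in earlier glands and from 66.8 over 94.7 to 103 in the later ones. The 2 ranges did not overlap. The log2 fold change of Gdpd1 was -1.02 ± 0.24 (95% interval -1.53 to -0.51; unadjusted p = 0.000746; DESeq2 adjusted p = 0.0343; voom adjusted p = 0.109). Wnk4, a kinase known for the control of sodium and chloride transport in the kidney, had low counts here. It ran from 24.0 over 110 to 131 in the earlier glands and from 0.00 over 9.72 to 28.4 in the later ones. Week 8 replicate 1, at 24.0, was the earlier gland within the later range. Wnk4 had a log2 fold change of -2.99 ± 0.71 (95% interval -4.50 to -1.48; unadjusted p = 0.000779; DESeq2 adjusted p = 0.00645).

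Ccl11 encodes eotaxin, a chemokine that draws eosinophils, cells found around the end buds of the pubertal gland. Its values were 107, 135 and 205 (lowest, median, highest) in the earlier glands and 223, 307 and 601 in the later ones, with no overlap. On the log2 scale the difference was 1.15 ± 0.26 (95% interval 0.59 to 1.71; unadjusted p = 0.000588), and the adjusted p was 0.0495 with DESeq2 and 0.0385 with voom. By week the means were 153 ± 49.1, 147 ± 40.3, 405 ± 170 and 270 ± 66.2 (SD, n = 3 each).

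The other 4 genes of smallest p with a higher mean, Gm10718, Gm11168, Gm10721 and Gm16869, are models on 1 tandem repeat near the start of chromosome 9 of mm9. Gm10718, Gm11168 and Gm10721 lie on the plus strand, and Gm16869 is a noncoding gene on the minus strand that spans them (chr9:3000282-3038313). Satellite repeats of this kind form the heterochromatin around mouse centromeres, and their copies elsewhere in the genome differ by few bases. The span matched itself best at a shift of 234 bases, with 71.4% identical bases, where the median over shifts of 50 to 400 bases was 31.3%. The unit in exon 2 of Gm10718 is printed in full, and the best ungapped match to it in 2 other models is printed with its differing bases in capitals, to show how alike the models are (plus strand, 5′ to 3′; Gm10718 chr9:3023617-3023850, Gm11168 chr9:3004761-3004994, Gm10721 chr9:3013210-3013443).
Gm10718: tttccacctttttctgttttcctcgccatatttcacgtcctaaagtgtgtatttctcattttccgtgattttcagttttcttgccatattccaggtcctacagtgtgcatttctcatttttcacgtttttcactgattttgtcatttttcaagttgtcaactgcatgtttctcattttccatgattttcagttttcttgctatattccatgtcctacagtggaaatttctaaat
Gm11168: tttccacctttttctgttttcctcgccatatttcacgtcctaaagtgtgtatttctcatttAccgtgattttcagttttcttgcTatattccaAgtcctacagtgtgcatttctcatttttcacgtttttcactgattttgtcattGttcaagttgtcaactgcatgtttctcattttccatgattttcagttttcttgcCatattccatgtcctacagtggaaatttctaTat
Gm10721: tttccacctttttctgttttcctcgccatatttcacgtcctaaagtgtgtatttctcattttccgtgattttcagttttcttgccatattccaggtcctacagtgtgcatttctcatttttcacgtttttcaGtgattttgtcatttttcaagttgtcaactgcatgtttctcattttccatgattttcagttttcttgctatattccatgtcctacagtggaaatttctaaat

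The unit of Gm11168 differs from that of Gm10718 at 6 of 234 bases (97.4% identity) and that of Gm10721 at 1 (99.6%). Reads cannot be placed on such copies with certainty, so the models are not separate results, and which copies were transcribed is uncertain. The strand setting of the counting is not given in the sources used here, so plus-strand and minus-strand models may share reads as well.

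Gm10718 ran from 137 over a median of 221 to 436 in the earlier glands and from 159 over 1457 to 3270 in the later ones. Only week 10 replicate 2, at 159, lay within the earlier range. The log2 difference was 2.61 ± 0.56 (95% interval 1.42 to 3.81; unadjusted p = 0.000334; DESeq2 adjusted p = 0.0219). Gm11168 was 2.72 ± 0.62, Gm10721 2.40 ± 0.56 and Gm16869 2.38 ± 0.56 on the same scale, and in each of the 3 week 10 replicate 2 again lay within the earlier range. By week, Gm16869 had means of 606 ± 64.3, 1784 ± 392, 3873 ± 3656 and 8679 ± 5747 (SD, n = 3 each). With week as a number in place of the periods it had an adjusted p of 0.0796, the smallest of all tested genes in that fit.

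All 11 tested models within the span had a higher mean in the later glands, with log2 fold changes from 1.09 to 3.33, 9 of them with an unadjusted p under 0.05. These models can share reads. Gm10800 on chromosome 2 (chr2:98506704-98507458, minus strand), named after its values were seen, holds a 234-base match of 93.6% identity to the unit and had medians of 706 and 4230 (2.45 ± 0.63). In PyMT mice, too, all 11 models had a higher mean in the later weeks, from 2.06 to 4.08 and each with an unadjusted p under 0.05. The smallest unadjusted p of a difference between the genotypes was 0.184. Gm10718 in PyMT ran from 2.09 over 138 to 254 in the earlier and from 245 over 697 to 1064 in the later samples (2.37 ± 0.55).

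**Figure D3:**
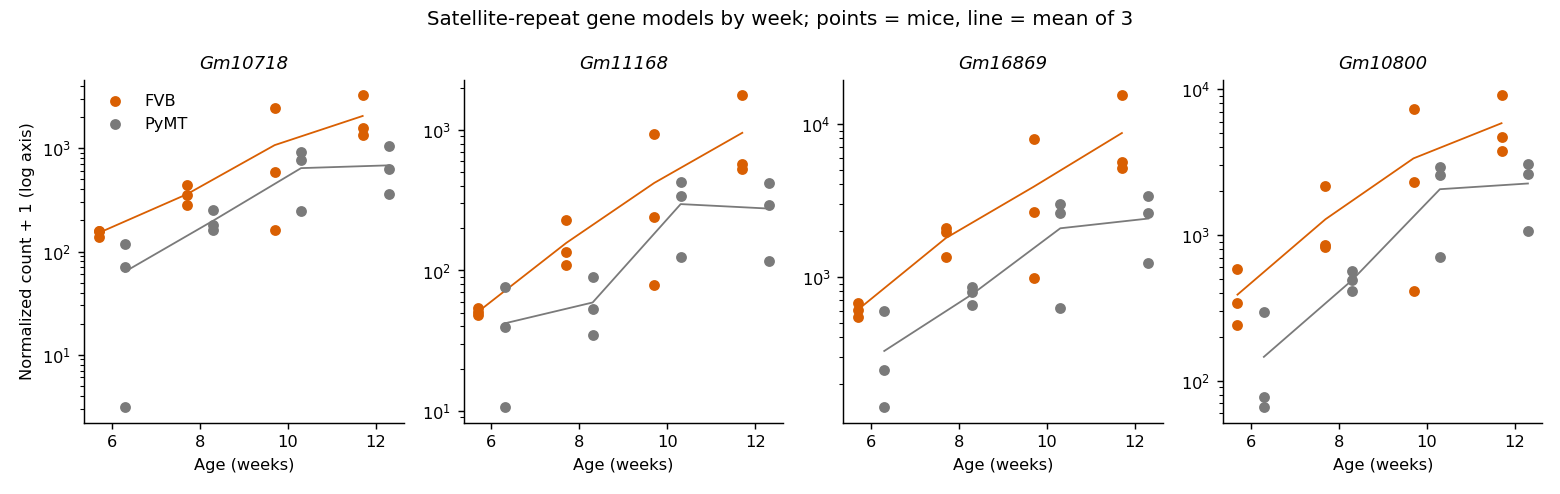
Normalized counts plus 1 on log axes of 4 gene models on satellite repeats against age in weeks, in FVB (orange) and PyMT (gray). Each point is 1 mouse and the lines join the means of the 3 mice; in FVB, Gm16869 had means of 606 at week 6 and 8679 at week 12.

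The annotated microRNA mmu-mir-2134-1 (chr1:169270500-169270555, minus strand) was named after its values were seen. It ran from 262 over 482 to 1147 in the earlier and from 23.0 over 128 to 260 in the later glands, with no overlap but by a narrow gap (log2 fold change -2.17 ± 0.53, unadjusted p = 0.000969). PyMT had -1.77 ± 0.61. Among its lower genes DESeq2 also called mmu-mir-2134-4, another annotated model of that microRNA. These models may share reads, so their calls may not be separate results. Whether reads on so short a model come from the microRNA was not tested.

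Genes of cell division had lower means in the later glands, with wide ranges in each period. All 29 tested genes of mitosis and cytokinesis had a lower mean (median -1.27, range -2.71 to -0.42). Of these, 6 had an unadjusted p under 0.05, beside 5.1% of all tested genes. Mki67, the nuclear proliferation marker, ran from 188 over a median of 1535 to 3283 in the earlier glands and from 199 over 290 to 1119 in the later ones (log2 fold change -1.51 ± 0.65, unadjusted p = 0.0348). Top2a, the topoisomerase that untangles chromosomes, had medians of 788 and 157 (-1.44 ± 0.71), and the condensin subunit gene Smc4 had medians of 665 and 550 (-0.42 ± 0.26).

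The ranges of Mki67 overlapped, since 2 earlier glands, week 6 replicate 1 at 263 and week 8 replicate 1 at 188, were as low as the later ones. Later glands of week 10 replicate 2 and week 12 replicate 2 were high, at 1119 and 1027. The summed level of the list was 738 CPM or more in 4 earlier and 2 later glands and 246 CPM or less in the other 2 and 4. Members of 1 list go up and down together in a gland, so the 29 lower means are not independent.

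The histone genes that are transcribed in S phase were low in the same 2 earlier glands and high in the same 2 later ones. Of 57 tested, 55 had a lower mean (median -1.09), 7 of them with an unadjusted p under 0.05, beside 5.1% of all tested genes. Hist2h3b (-1.34) had the smallest p of the list. Voom called Hist1h4c (-0.57) and Hist1h4h (-0.73), both lower, and DESeq2 called neither. The 3 of highest mean normalized count, Hist1h4d, Hist1h1c and Hist1h2bc, were at -0.31 ± 0.26, -0.08 ± 0.19 and -0.18 ± 0.17, where the signs of Hist1h1c and Hist1h2bc turned under 3 and 1 of the alternatives. Histone genes are near-identical copies, so their counts are uncertain gene by gene. Of the 29 tested genes of DNA replication and nucleotide synthesis, 27 had a lower mean (median -0.39). Rrm1, a subunit of ribonucleotide reductase, had medians of 521 and 296 (-0.80 ± 0.36, unadjusted p = 0.0439), the maintenance DNA methyltransferase gene Dnmt1 of 1500 and 961 (-0.35 ± 0.31), and the helicase subunit gene Mcm7 of 447 and 380 (-0.13 ± 0.32, with the opposite sign under 3 of the alternatives).

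The size of these differences depended on which glands entered. The 4 muscle-rich libraries held 1 earlier and 2 later glands of low mitosis level. Without the 4 libraries high in muscle markers the median of the mitosis list was -0.60, and without the 7 libraries with a packet size, which left 5, it was -2.74. With the luminal epithelium markers as a covariate it was -0.85. The luminal markers themselves had a median of -0.15, with 8 of 12 lower and 1 unadjusted p under 0.05 for the higher Prom1 (0.87), and the basal and myoepithelial markers one of -0.11, with 6 of 10 lower; both medians were above 0, at 0.13 and 0.05, without the muscle-rich libraries.

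**Figure D4:**
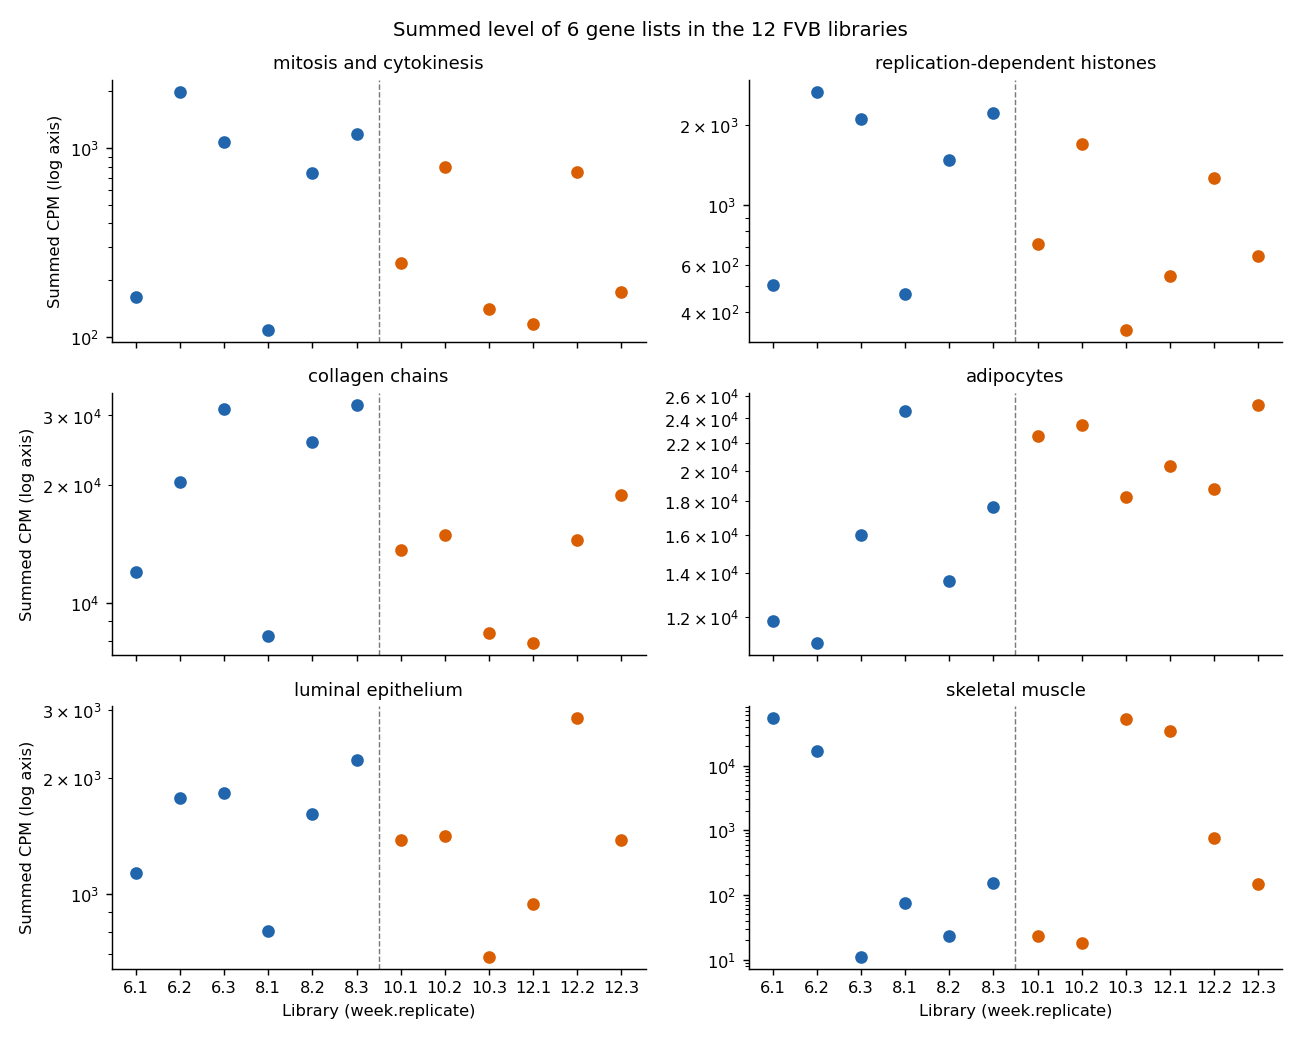
Summed CPM on log axes of 6 gene lists in each of the 12 FVB libraries, in order of week and replicate, with earlier glands in blue, later glands in orange and a dashed line between them. The mitosis list is low in week 6 replicate 1 (164 CPM) and week 8 replicate 1 (109 CPM) among the earlier glands, and the muscle list spans from 11.0 to 53573 CPM.

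All 10 adipocyte markers had a higher mean in the later glands, with a median of 0.48 and a range of 0.33 to 0.91. In 4 of them, beside 5.1% of all tested genes, the unadjusted p was under 0.05: Retn, Fabp4, Adipoq (0.58) and Car3 (0.48). Retn encodes resistin, an adipokine, and like Fabp4 was named after its values were seen. It ran from 912 over 1292 to 2325 in the earlier and from 1531 over 2485 to 3932 in the later glands. The log2 fold change of Retn was 0.91 ± 0.25 (unadjusted p = 0.00282; voom adjusted p = 0.0287; DESeq2 adjusted p = 0.135). Fabp4, the fatty acid carrier of adipocytes, had medians of 25199 and 39905 (0.48 ± 0.22). Among the earlier glands week 8 replicate 1, at 49369, was above every later one, and the other 5 ran from 21804 to 26365, below every later one. The same gland was the lowest earlier one for Mki67, Col1a1, Eln and Wnk4.

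Enzymes of fatty acid and triglyceride synthesis overlapped widely between the periods. Of 22 tested, 18 had a higher mean (median 0.22) and 0 had an unadjusted p under 0.05. Scd1, the stearoyl-CoA desaturase, had medians of 273460 and 292058. Fasn, fatty acid synthase, ran from 23554 to 262638 in the earlier and from 16241 to 357772 in the later glands, and Acaca, acetyl-CoA carboxylase, from 2675 to 29356 and from 2385 to 38975. The signs of Fasn and Acaca turned under 5 of the alternatives each. Of 23 tested genes of cholesterol synthesis and its control, 20 had a higher mean (median 0.19), Dhcr7 (0.65) being the 1 with an unadjusted p under 0.05. The medians were 1347 and 1533 for Insig1, a brake on the pathway, 487 and 903 for Sc5d and 754 and 779 for the transcription factor gene Srebf2. Sc5d, a sterol desaturase, was called by voom (adjusted p = 0.0436) but not by DESeq2 (adjusted p = 0.861). In the quasi-likelihood fit it had a log2 fold change of 0.55 ± 0.28.

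Brown fat genes spanned wide ranges within each period. Ucp1, the uncoupling protein of brown fat, ran from 6.78 over 920 to 7650 in the earlier glands and from 5.47 over 1464 to 5837 in the later ones (-0.03 ± 1.11). The lowest gland of each period belonged to replicate 3 of weeks 8 and 12. Cidea, a lipid droplet protein, ran from 82.5 to 4002 and from 96.2 to 3139 (-0.24 ± 0.84), and Adrb3, the beta-3 adrenergic receptor gene, had medians of 1296 and 1970 (0.54 ± 0.35). The list of 13 had a median of 0.02, with 8 higher, and one of -0.05 with scaling by library size only; the signs of Ucp1 and Cidea turned under 11 and 7 of the alternatives.

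Of 18 tested genes of milk proteins and the milk fat globule, 14 had a higher mean (median 0.47). Of these, 3 had an unadjusted p under 0.05, Csn3, Xdh and Spp1 (2.48), beside 5.1% of all tested genes. Csn3, which encodes kappa-casein, was named after its values were seen. It ran from 194 over 673 to 1756 in the earlier and from 909 over 2939 to 4076 in the later glands. On the log2 scale Csn3 was at 1.61 ± 0.50 (unadjusted p = 0.0061; voom adjusted p = 0.0235; DESeq2 adjusted p = 0.463). Its week means were 1034 ± 635, 613 ± 603, 1677 ± 1148 and 3423 ± 605 (SD, n = 3 each), with the 4 highest values in the 3 glands of week 12 and in week 10 replicate 3. Without the week 12 samples the log2 fold change of Csn3 was 0.99 and the median of the list was -0.02. Xdh, a protein of the globule membrane that is also made in fat, had medians of 2017 and 3643. The log2 fold change of Xdh was 0.57 ± 0.25 (voom adjusted p = 0.036; DESeq2 adjusted p = 0.694). Mfge8 and Plin2, both coats of milk fat, were at medians of 4207 and 4704 and of 2460 and 2745, and their signs turned under 2 and 11 of the alternatives.

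Receptors of the mammary hormones had small differences. Prlr, the prolactin receptor gene, ran from 3948 over 4763 to 5679 in the earlier and from 4347 over 5823 to 11279 in the later glands (0.42 ± 0.22, 95% interval -0.06 to 0.89). Esr1, encoding estrogen receptor alpha, had medians of 1276 and 1575 (0.28 ± 0.18, 95% interval -0.11 to 0.67), and the glucocorticoid receptor gene Nr3c1 of 2093 and 2633 (0.25 ± 0.15, 95% interval -0.07 to 0.58). The list of 19 had 10 lower and 9 higher means (median -0.05), and Cited1, a transcriptional coregulator with a lower mean (-0.62), had an unadjusted p under 0.05.

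Interferon and antigen presentation genes had medians a little above 0. Of 24 tested interferon-stimulated genes, 19 had a higher mean (median 0.21). Ifi27l2a ran from 242 over 396 to 783 in the earlier and from 571 over 889 to 1349 in the later glands. On the log2 scale this was 1.07 ± 0.29 (unadjusted p = 0.00219; voom adjusted p = 0.019; DESeq2 adjusted p = 0.135). Ddx58, the RNA sensor RIG-I, had medians of 624 and 629, with 1 later gland at 82.9. Of 16 tested genes of antigen presentation, 14 had a higher mean (median 0.25). B2m, the light chain of MHC class I, had medians of 4653 and 6608 (0.39 ± 0.18, unadjusted p = 0.0468), H2-D1 of 8566 and 10026 (0.30 ± 0.16) and H2-K1 of 3542 and 3491 (0.04 ± 0.21, with the opposite sign under 11 of the alternatives, library size scaling among them). H2-K1 and H2-D1 are close paralogs, so reads may be split between them with error.

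Markers of leukocytes were also counted. Of the 10 macrophage markers 8 had a higher mean (median 0.18), which went to -0.01 without the muscle-rich libraries. All 5 tested mast cell markers had a higher mean (median 0.77), 2 with an unadjusted p under 0.05, the proteases Tpsb2 (1.31) and Cpa3 (1.11), at 17.1 to 56.4 summed CPM in the earlier and 29.8 to 99.6 CPM in the later glands. Only 3 of 10 T cell markers and 1 of 9 B cell markers passed the filter on low counts, and the B cell markers summed to at most 4.66 CPM in any gland. The T cell median was -0.15 and the B cell value 0.17, with the opposite sign under 7 and 10 of the alternatives, and the 1 tested lymph node stroma marker was at -0.37. The 1 tested neutrophil marker, S100a8, had a mean normalized count of 2.01, and its log2 fold change of 3.06 went to 0.76 without week 10 replicate 1. Of the neutrophil markers Ly6g, and of the lymph node stroma markers Ccl19, had a count of 0 in all 12 libraries. Zeb2, a zinc finger transcription factor of macrophages and mesenchyme, was named after its values were seen. It ran from 2302 over 2890 to 3611 in the earlier and from 3583 over 4528 to 5403 in the later glands. On the log2 scale Zeb2 was at 0.59 ± 0.15 (unadjusted p = 0.00144; DESeq2 adjusted p = 0.0343; voom adjusted p = 0.0591).

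Clock, stress and secretion genes had medians near 0. The circadian clock genes, where 16 of 20 had a higher mean (median 0.19, Per2 at 0.48 being the 1 with an unadjusted p under 0.05), included Tef at medians of 1432 and 2048, Per3 at 1435 and 1727 and Nr1d2 at 1174 and 1443. Per3 changed sign when either week 6 or week 10 was left out. Immediate early and stress genes were split 10 higher and 11 lower (median -0.03). Their most abundant members were Jun at medians of 590 and 795, the phosphatase gene Dusp1 at 456 and 682, and the growth regulator Myc at 637 and 325 (-0.76 ± 0.35, unadjusted p = 0.0462). Genes of protein folding and secretion in the endoplasmic reticulum had 16 of 21 higher means (median 0.11). Dnajc3 (0.34) and Ddit3 (0.72) were the 2 with an unadjusted p under 0.05, beside 5.1% of all tested genes. The chaperones of highest mean normalized count were Calr at medians of 3139 and 3873, Hsp90b1 at 3081 and 3488 and Canx at 3102 and 3479.

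The medians of the endothelial, lymphatic, pericyte and fibroblast markers were 0.03 (-0.02 with scaling by library size only), 0.05, 0.09 and 0.20, with an unadjusted p under 0.05 for the lower Pdpn (-0.51) among the lymphatic and the higher Dcn among the fibroblast markers. Those of the red blood cell, Schwann cell, plasma cell and skin markers were 0.30, 0.33, 0.94 and 0.26, over 4, 6, 5 and 1 tested markers. The skeletal muscle markers had a median of 0.44 with all 12 higher, and over the alternatives it ran from -1.26 with the luminal markers as a covariate to 7.81 without the week 6 samples, and was -0.70 without week 10 replicate 3.

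Neighboring weeks were also tested in a fit of the 4 weeks. At an adjusted p under 0.05, 0 genes were higher and 0 lower (0.0% each) at week 8 against 6, at week 10 against 8 and at week 12 against 10. At an unadjusted p under 0.05 there were 298 (2.0%; 0.818% higher, 1.18% lower), 668 (4.48%; 1.92% higher, 2.56% lower) and 523 genes (3.51%; 2.35% higher, 1.16% lower). C1qtnf6 had log2 fold changes of 0.02 from week 6 to 8, -1.99 from week 8 to 10 (unadjusted p = 0.000194) and 0.72 from week 10 to 12. Eln had -0.16, -1.42 (unadjusted p = 0.00235) and 0.55. For both the step from week 8 to 10 was the one with an unadjusted p under 0.05, as for Ccl11 at -0.08, 1.46 (unadjusted p = 0.00173) and -0.59. These genes were picked by the smallest p between the periods, which part at this step. Their step values therefore do not show when a change occurred. All libraries of week 10 also had a packet size. The satellite model Gm16869 had positive values at all 3 steps, 1.54, 1.11 and 1.15.

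The same periods were compared in PyMT mice to see where the normal gland differed. In PyMT 0 genes were higher and 0 lower at an adjusted p under 0.05 (0.0% each), and 1072 had an unadjusted p under 0.05 (7.19%, with 3.75% higher and 3.44% lower). DESeq2 called 48. The difference between the genotypes, FVB log2 fold change minus PyMT log2 fold change, passed for 0 genes (0.0% in each direction), with 790 at an unadjusted p under 0.05 (5.3%, with 2.71% higher and 2.58% lower) and 1 call by DESeq2. So no gene was shown to be particular to the normal gland, and the values that follow are descriptions.

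The 5 genes of smallest p in that test had opposite signs in the genotypes, and the FVB sign of Sod3 turned under 2 of the alternatives. Mrpl41, a mitochondrial ribosomal protein gene, ran from 44.2 over 99.7 to 110 in earlier and from 139 over 153 to 236 in later FVB glands, with no overlap. This was 0.94 ± 0.29 on the log2 scale in FVB and -0.65 ± 0.22 in PyMT, a difference of 1.60 (unadjusted p = 0.000109, adjusted p = 0.578). Ccnd2, encoding cyclin D2, was 0.44 ± 0.15 in FVB and -0.64 ± 0.20 in PyMT. The noncoding 4632427E13Rik was -0.32 ± 0.15 and 0.52 ± 0.13, Plekhb1, a pleckstrin homology domain gene, -0.55 ± 0.26 and 1.08 ± 0.24, and Sod3, extracellular superoxide dismutase, 0.16 ± 0.25 and -1.53 ± 0.37.

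Among the genes of smallest p in FVB, Eln was -1.20 ± 0.26 in FVB and 0.10 ± 0.21 in PyMT (difference -1.29, unadjusted p = 0.00179), and C1qtnf6 was -1.58 ± 0.28 and -0.11 ± 0.46 (difference -1.44, unadjusted p = 0.00962). Meg3 was -1.21 ± 0.25 and -0.65 ± 0.25, and Ccl11 was 1.15 ± 0.26 and 1.03 ± 0.89. The adipocyte markers, with 10 of 10 higher in later FVB glands, had 10 of 10 lower means in later PyMT samples (median -0.93). The difference of Retn was 2.19 (unadjusted p = 0.00286, adjusted p = 0.66) and that of Ifi27l2a 2.02 (unadjusted p = 0.00272, adjusted p = 0.66). Counts of both were low in PyMT. Retn ran there from 0.938 to 200 in the earlier and from 22.2 to 94.0 in the later samples. Ifi27l2a ran from 27.1 to 106 and from 4.45 to 54.5. The mitosis list had a median of -0.33 in PyMT with all 29 lower, at 2033 to 3607 summed CPM there and 109 to 1995 CPM in FVB. Adipocyte markers summed to 303 to 3097 CPM in the earlier PyMT samples, against 10941 to 24675 CPM in the earlier FVB glands, and the part of tissue makeup in these differences was not tested.

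**Figure D5:**
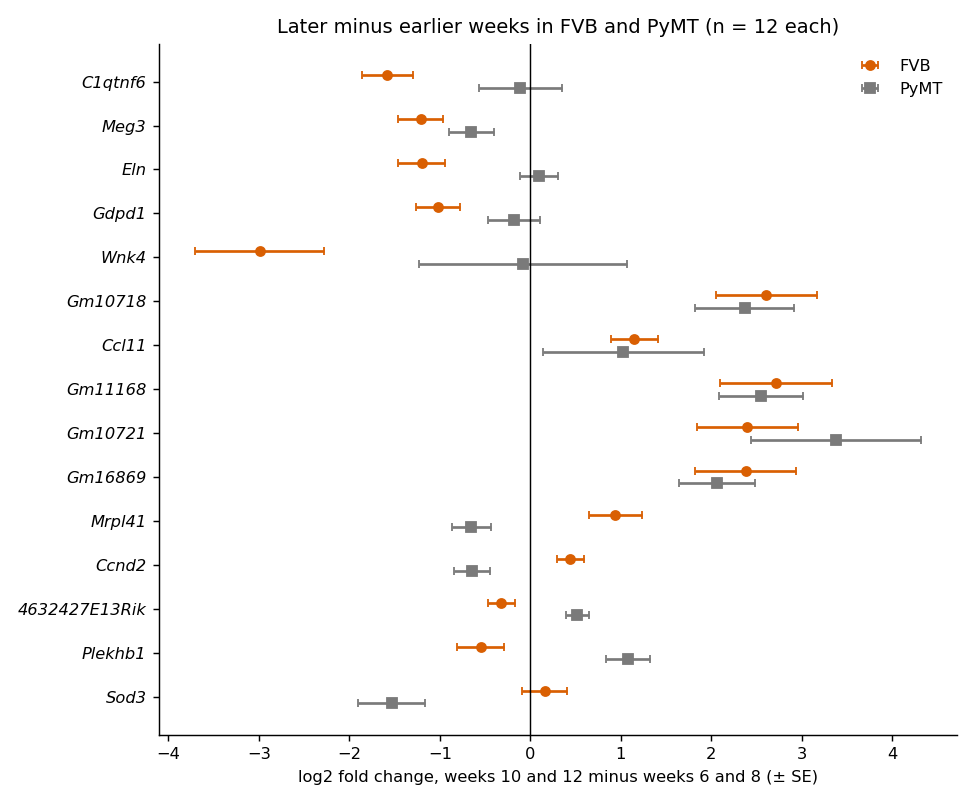
Log2 fold change of weeks 10 and 12 minus weeks 6 and 8 with its SE (horizontal axis) in FVB (orange circles) and PyMT (gray squares) for the 10 genes of smallest p in FVB and the 5 of smallest p in the test of the difference. Gm10718 is at 2.61 and 2.37, Eln at -1.20 and 0.10, and no gene passed an adjusted p under 0.05 in any of the 3 tests.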

How the data were processed

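RNA of 24 frozen mammary samples was depleted of ribosomal RNA and sequenced as directional libraries. The authors mapped reads with GSNAP to mm9, summed them over Ensembl genes by HTSeq, and deposited the unnormalized counts. The annotation version and the strand setting of the counting are not given in the sources used here. Of 37991 genes, 37205 had a model in GENCODE M1 (mm9), used for symbols and positions, and sequence was read from the same build. Replicates differed by a chi-square per gene of 21.7 to 207 over 12 pairs, so within these pairs no library was a copy of the other. The test took the 14918 genes that reached a CPM of 1 in 12 or more samples.

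The 12 FVB samples were fitted with period alone by edgeR 4.0.16's quasi-likelihood test after TMM scaling, with Benjamini-Hochberg adjustment, in R 4.3.3. The SE is the log2 fold change over the square root of F. Alternatives used DESeq2 1.42.0 and limma 3.58.1 (voom with quality weights), other scalings, filters, samples and covariates. The robust test and the fit without muscle-rich libraries were chosen after seeing the data. For normalized counts, each count was divided by its sample's DESeq2 size factor, set over all 24 samples. Tables and figures used Python 3.11.15, NumPy 2.4.6, pandas 2.3.3, SciPy 1.17.1 and matplotlib 3.10.9. The fit was also run on simulated counts with changes larger than most of those given here. That run does not show what the fit could detect in these data. Depth limits rare genes. The p-values set a difference against the spread between mice of a period, which also holds differences between the pooled weeks.

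The comparison and the gene lists were chosen with earlier results of these data known. By rule, the text names per direction the 12 largest changes that pass with a mean of 100 normalized counts or more and separate periods. Since 0 qualified in either direction, the 5 of smallest p per direction are named, with the 3 members of highest mean of each of 19 lists and the 5 of smallest p in the test of the difference between genotypes. Other named genes were chosen after their values were seen. Some list members are not reported here. A packet size is where the histogram of gene counts peaks above 5 reads, after Gaussian smoothing (SD 1.5).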

Additional observations from a re-analysis of the deposited data

Results flagged for a closer look

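In each period of 6 glands, the gap of the highest or lowest gland to the next, divided by the range (on the log2 scale with 1 added for genes), was compared with Dixon's 95% critical value. Of 242 such groups, 15 had a gland beyond it, and chance flags about 1 in 20 groups.

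Among the earlier glands, 5 of these values belong to week 8 replicate 1. It had Hist1h1c at 351 (others 671 to 939), Rian at 193 (659 to 1042), Calr at 4794 (2946 to 3535) and Fabp4 at 49369 (21804 to 26365), and its mean log2 level of the T cell markers was 2.82 (5.6 to 6.7). This library had a packet size of 18, and 1.92% of the genes at 10 to 30 CPM had a count of 0 in it. Week 6 replicate 2 had Gm10720 at 0.00 (6.95 to 15.8) and Gm17535 at 1.54 (14.1 to 42.9), both models on the chromosome 9 satellite repeat. Week 8 replicate 3 had Ucp1 at 6.78 (756 to 7650).

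Among the later glands, week 10 replicate 3, with a packet size of 19, had Rrm1 at 75.1 (277 to 534) and Ddx58 at 82.9 (480 to 834). Week 10 replicate 2 had Jun at 416 (704 to 829) and Gm10717 at 0.00 (40.2 to 247). Week 10 replicate 1 had a mean log2 level of the lymphatic markers of 5.56 (6.04 to 6.26). Week 12 replicate 3 had Ucp1 at 5.47 (1184 to 5837), and week 12 replicate 2 had Mrpl41 at 236 (139 to 164).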

How the results depend on the processing

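The counts of 0 genes higher, lower and beyond a fold of 2 held under all alternatives except 3: DESeq2 gave 9, 8 and 16, voom with quality weights 58, 28 and 39, and the luminal markers as a covariate 0, 1 and 1, the gene being C1qtnf6 (adjusted p = 0.0497). The fits with 1 of the 12 libraries left out gave 0 to 0 calls, and those without packet-size or muscle-rich libraries gave 0. The PyMT comparison gave 48 genes with DESeq2, which left 8393 genes without an adjusted p there. The difference between genotypes gave 1 with DESeq2 and 1, Enpep, without packet-size libraries. Of 2656 values of named genes under alternatives, 2506 stayed within 1 SE, 116 moved by over 1 SE and 34 passed the threshold under the alternative, 0 of them with the opposite sign. Of 1182 list medians 10 moved by more than the SD between glands. Under the filter within FVB, the B cell and neutrophil lists had no tested marker and gave no value.

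The replicate numbers come from sample names that do not say what a number shares. Same-numbered glands of different weeks had deviations correlated at -0.40 to 0.40 over 18 pairs, 8 of them over 0.1, and 7 of 12 glands correlated best with their own number. The replicate block gave 0 genes and 818 at an unadjusted p under 0.05, against 761 without it, and 0 for each step between weeks, for PyMT and for the difference. Depth limits genes of low count, and packet size may do so too. Having 6 glands a period with a biological coefficient of variation of 0.524 limits what could pass.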
